A study of Mus musculus with 2 samples.

Results

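The 6 genes Fst, Fstl1, Inhba, Bmp4, Bmp5 and Grem1 of the activin and bone morphogenetic protein (BMP) pathways were followed across the cell classes of mouse lung. They were chosen by symbol, and each of the 6 names matched 1 of the 27998 genes in both count tables. Single-cell 3' libraries had been made from lung cells lacking CD45, the surface protein of blood-derived leukocytes, 7 days after labelling-4T1 cells were given into the circulation. 4T1 is a mouse mammary carcinoma line, and its labelling form releases a cell-penetrating red fluorescent Cherry protein that nearby cells take up. Both groups came from injected lungs: the Cherry_positive library holds sorted cells labelled with Cherry and the Cherry_negative library the cells without it. Each group is 1 library, strain, age and number of animals are not named by the labels, and no label assigns irradiation to either library although the series is about irradiated lung. With 1 library a group no p-value was possible, and every interval below covers counting error only.

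Activins and BMPs are secreted dimers of the TGF-beta family that assemble type I and type II receptor kinases. Activins, made from inhibin beta subunits such as the product of Inhba, act through Smad2 and Smad3, and BMPs through Smad1, Smad5 and Smad9, which switch on genes such as Id1. Secreted binding proteins limit both arms: follistatin (Fst) captures activins and some BMPs, and gremlin 1 (Grem1) captures BMPs. In lung, BMP4 is known from branching of the airways and from the differentiation of alveolar epithelium.

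Cells with at least 500 detected genes and at most 10% mitochondrial counts were kept, 1766 Cherry_positive and 2804 Cherry_negative. The tables held 10094853 and 11632459 counts of unique molecular identifiers (UMIs, each marking 1 captured RNA molecule), with medians of 4324 and 2971 per barcode, and 13 barcodes occurred in both. Clusters were named from marker genes, and the ending -like marks that the names are rebuilt. Levels are in CPM, the UMIs of a gene per 1000000 UMIs of the class. A class was compared where each library had 50 or more of its cells, which held for alveolar fibroblast-like (867 Cherry_positive and 469 Cherry_negative cells), adventitial fibroblast-like (128 and 113), myofibroblast-like (243 and 132), pericyte-like (62 and 51), general capillary-like (121 and 919) and Car4 capillary-like cells (82 and 309). All 12 alveolar fibroblast markers were detected in that class in both libraries, at a summed level of 7536 CPM in Cherry_positive and 20504 CPM in Cherry_negative cells. Different clusters held most of the class in the libraries: cluster 2 held 118 Cherry_positive and 322 Cherry_negative cells, cluster 6 held 212 and 94, cluster 7 held 266 and 31, and cluster 8 held 270 and 6. Clusters 7 and 8 had no marker of their lineage among their 10 leading genes and were named from the 12 and 10 alveolar fibroblast markers detected in them. These markers were low there. Relative to the highest cluster for each marker, their mean level was 0.291 in cluster 7 and 0.19 in cluster 8. It was 0.939 in cluster 2 and 0.383 in cluster 6, so the name is weaker for clusters 7 and 8. Fst itself is among the 10 leading genes of cluster 7.

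The sequence before the start of the 3 ligand genes is shown because Bmp4 and Bmp5 were lower together in Cherry_positive myofibroblast-like and adventitial fibroblast-like cells while Inhba was not. In alveolar fibroblast-like cells Bmp4 was lower but the interval of the Bmp5 ratio, 0.732 to 1.03, held 1. The 250 bases before each RefSeq start (GRCm38.p6) are given 5′ to 3′ along the gene, with capitals marking a match to any of 6 motifs searched on both strands.
Bmp4 (chr14:46390670-46390919, minus strand): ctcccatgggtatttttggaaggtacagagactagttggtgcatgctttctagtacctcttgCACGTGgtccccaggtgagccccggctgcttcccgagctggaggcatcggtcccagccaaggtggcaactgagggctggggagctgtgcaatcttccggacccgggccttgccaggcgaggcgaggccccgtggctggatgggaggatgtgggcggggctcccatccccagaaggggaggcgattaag
Bmp5 (chr9:75775115-75775364, plus strand): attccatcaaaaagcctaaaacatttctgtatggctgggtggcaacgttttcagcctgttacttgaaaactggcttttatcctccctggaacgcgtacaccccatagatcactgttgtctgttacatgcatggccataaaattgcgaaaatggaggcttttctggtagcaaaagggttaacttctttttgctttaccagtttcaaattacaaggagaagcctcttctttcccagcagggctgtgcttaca
Inhba (chr13:16011601-16011850, plus strand): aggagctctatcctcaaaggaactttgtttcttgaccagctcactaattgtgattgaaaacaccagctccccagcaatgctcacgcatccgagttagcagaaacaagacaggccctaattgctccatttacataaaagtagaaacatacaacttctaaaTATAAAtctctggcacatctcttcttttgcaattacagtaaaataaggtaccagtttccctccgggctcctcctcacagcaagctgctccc
The motifs were the TATA box TATAAA, the CCAAT box CCAAT, the GC-rich Smad element GGCGCC, the E-box CACGTG, the AP-1 site TGANTCA and the Smad-binding palindrome GTCTAGAC. Among 32851 promoters of this length in the table, 12.4% held TATAAA, 33.8% CCAAT, 9.59% GGCGCC, 6.02% CACGTG, 6.75% TGANTCA and 0.167% GTCTAGAC. Bmp4 had 1 match, an E-box starting 188 bases before the start, and Inhba had 1, a TATA box starting 91 bases before it. None of the 6 motifs was found in the Bmp5 window, and no match overlapped another. The first bases after the start used were found in 1 of 4 annotated transcripts of Bmp4, 1 of 2 of Bmp5 and 1 of 2 of Inhba. Starts of the other transcripts were not searched. The Bmp4 window was richer in G and C, at 63.2%, than the Bmp5 window at 42.8% and the Inhba window at 43.2%.

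The antagonist Fst was high in the mesenchymal classes of the Cherry_positive library, lower in its carcinoma-like cells and near 0 in endothelium and epithelium. In alveolar fibroblast-like cells it held 845 UMIs in 78 of 867 Cherry_positive cells, or 185 CPM (95% Poisson interval 172 to 197), and 0 UMIs in 469 Cherry_negative cells, which by a limit of 3 counts allows up to 1.87 CPM and 0.640% of cells with a UMI. Against a floor of 3 counts in the Cherry_negative class, Fst was 98.9-fold higher in Cherry_positive cells. The exact 95% lower limit of the ratio, with 0 Cherry_negative UMIs, was 80.3 for Fst. The gene lies on chromosome 13 at 114452290 to 114458951, minus strand (GRCm38), and encodes the secreted follistatin glycoprotein. Of the 6 genes, 5 had at least 10 UMIs in this class, and 3 of those were at least 2-fold higher and 0 at least 2-fold lower in Cherry_positive cells. Over all 11465 genes with as many UMIs, 6.75% were 2-fold higher and 9.94% 2-fold lower. The 6 genes were chosen with such differences known, so the 2 counts are set side by side and nothing is read from them.

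Cherry_positive myofibroblast-like cells, mesenchymal cells known for laying down elastin, held 236 Fst UMIs in 44 of 243 cells, at 189 CPM (166 to 215). Their Cherry_negative counterparts held 2 UMIs in 132 cells, at 5.59 CPM, a ratio of 33.9 (95% interval 9.27 to 281). Fst in adventitial fibroblast-like cells, found around vessels and airways, was at 145 CPM in Cherry_positive and 29.1 CPM in Cherry_negative cells, a ratio of 4.98 (2.95 to 8.98). In pericyte-like cells, the mural cells of capillaries, it was at 192 and 68.1 CPM, a ratio of 2.81 (1.35 to 6.57), and 39.5% of the Cherry_positive UMIs came from 1 cell. The 4 Cherry_positive levels ran from 145 to 192 CPM with overlapping intervals. The Cherry_negative levels ran from 0 in alveolar fibroblast-like to 68.1 CPM in pericyte-like cells. The share of cells with a UMI, after thinning each cell to 2000 UMIs and leaving out shallower cells, was 6.48% against 0% in alveolar fibroblast-like, 13.2% against 1.03% in myofibroblast-like, 16.4% against 8.26% in adventitial fibroblast-like and 11.7% against 11.1% in pericyte-like cells. Without thinning these shares were 9.0% against 0%, 18.1% against 1.52%, 27.3% against 9.73% and 16.1% against 15.7%.

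Endothelial and epithelial cells showed little Fst. Over all endothelial classes, taken as the comparison, 4 of 247 Cherry_positive cells (1.62%) and 4 of 1443 Cherry_negative cells (0.277%) had a UMI, at median depths of 3209 and 2390 UMIs a cell. The alveolar fibroblast-like cells had medians of 4512 and 3128. Among 448 Cherry_negative type 2 alveolar-like cells, the surfactant-making epithelium, 0 had one, which by the same limit allows up to 0.670% of cells with a UMI. The shares in the 4 mesenchymal classes of the Cherry_positive library were above those in endothelium. In carcinoma-like cells, 111 UMIs were found in 11 of 129 Cherry_positive cells, at 81.6 CPM (67.1 to 98.3), and 1 cell held 68 of them, or 61.3%. These 11 cells had a median of 23737 UMIs, against 5139 in the 118 carcinoma-like cells without Fst.

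**Figure D1:**
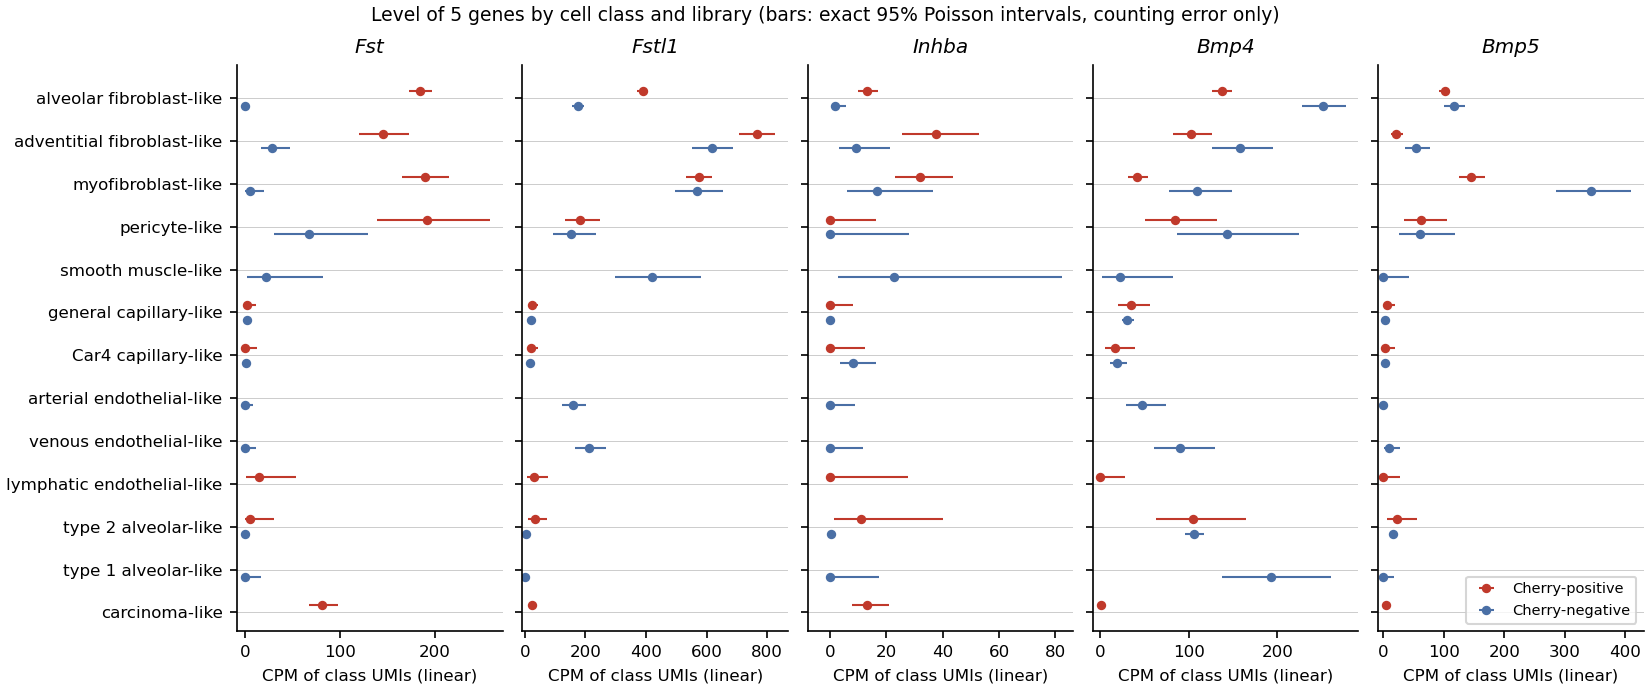
Level of Fst, Fstl1, Inhba, Bmp4 and Bmp5 in CPM of class UMIs (linear axes, 1 panel per gene) in each class with at least 20 cells in a library; red points are Cherry_positive, blue points Cherry_negative, bars exact 95% Poisson intervals of the counts. Fst is high in the 4 mesenchymal classes of the Cherry_positive library (145 to 192 CPM). Bmp4 is also present in type 2 alveolar-like cells of both libraries (105 CPM from 22 Cherry_positive cells and 106 CPM from 448 Cherry_negative cells).

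Within the alveolar fibroblast-like class, Fst was concentrated in clusters 7 and 8, which held few Cherry_negative cells. Cluster 7, led by Tnc, Tfpi2 and Angptl8, held 341 UMIs in 31 of 266 Cherry_positive cells, at 249 CPM (223 to 277), and 0 in 31 Cherry_negative cells. Cluster 8, led by Fam26f, Cxcl10 and Saa3, held 499 UMIs in 43 of 270 Cherry_positive cells, at 301 CPM (276 to 329), and 0 in 6 Cherry_negative cells. Cluster 6 held 4 UMIs and cluster 2 held 1 in the Cherry_positive library, and both held 0 in the Cherry_negative library. Leaving out clusters 7 and 8 left 5 UMIs against 0, a bound of 1.60-fold against the floor, under the 2-fold mark. In cluster 7 by itself the bound was 7.66-fold. That bound counts UMIs as separate, although they lay in 31 of 266 cells. With only 31 Cherry_negative cells, it cannot show that the share of cells with Fst differed within the cluster. When the cells were clustered without the 6 genes and the pathway lists, the bound for the whole class was 98.2-fold. With each library clustered by itself it was 31.0-fold, and the class then held 228 of the Fst UMIs, in 661 Cherry_positive cells. With cells of at least 1000 genes and at most 5% mitochondrial UMIs it was 58.6-fold, from 338 UMIs in 485 Cherry_positive cells. How many of the 845 UMIs fall in this class thus depends on the clustering and the cell filter. As an order of cells, 25 of the 78 holding cells had at least 10 Fst UMIs and carried 82.7% of the class total, 27 had a single UMI, and the highest had 64. The same concentration was weaker in myofibroblast-like cells, where 5 cells with at least 10 UMIs carried 48.3%, and in adventitial fibroblast-like cells, where 1 such cell carried 19.4%.

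**Figure D2:**
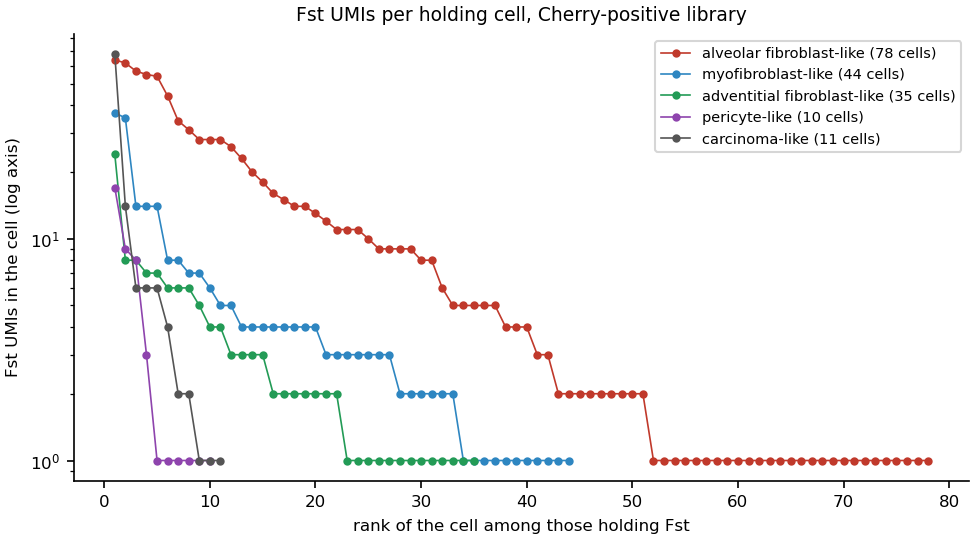
Fst UMIs in each Cherry_positive cell that holds any (y, log axis), ranked from highest to lowest (x), for 5 classes. In alveolar fibroblast-like cells 25 of 78 cells had at least 10 UMIs, and 1 carcinoma-like cell with 68 UMIs stands above the 10 others of its class.

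The 78 Fst-holding alveolar fibroblast-like cells of the Cherry_positive library were set beside the 789 without Fst. Of the 78, 74 lay in clusters 7 and 8, against 462 of the 789, so the groups also differ in cluster. The Fst-holding cells were deeper, with medians of 8056.5 and 4318 UMIs, so levels rather than shares are given. Fstl1 was at 674 CPM (615 to 739) in them and 339 CPM (321 to 358) in the others, and Inhba at 31.8 and 9.77 CPM. A single cell carried 26 of the 38 Inhba UMIs of the cells without Fst, and 1 cell carried 7 of the 22 in the Fst-holding group. Without the top cell of each group, Inhba was at 22.1 CPM in the Fst-holding cells and 3.10 CPM in the others. Bmp4 was lower, at 59.3 against 151 CPM, while Bmp5 was at 82.5 against 105 CPM with overlapping intervals. The 12 alveolar fibroblast markers summed to 1758 CPM in the Fst-holding and 8563 CPM in the other cells, with Inmt at 415 against 3753 CPM and Tcf21 at 117 against 439 CPM. Smooth muscle markers summed to 2305 against 886 CPM and cycling markers to 40.5 against 7.97 CPM. Carcinoma markers summed to 1514 CPM (8 of 13 seen) against 948 CPM (9 of 13 seen). Spp1, encoding secreted osteopontin, was at 896 CPM against 7.72 CPM, its 619 UMIs in the Fst-holding group lying in 18 cells, and Lcn2, encoding secreted lipocalin 2, was at 572 against 910 CPM. Lgals7 was at 13 against 1.29 CPM, Wfdc2 at 15.9 against 8.49, Krt18 at 10.1 against 5.66, Krt7 at 4.34 against 4.63 and Krt8 at 1.45 against 6.17. Epcam had 1 UMI against 0, and Krt14, Krt19, Cldn4, Cldn7 and Krt6a were at 0 in the Fst-holding cells. In carcinoma-like cells without Fst, Krt8 was at 1110 CPM. In myofibroblast-like cells of the same library, the 44 holding Fst had Inhba at 76.0 CPM against 16.3 in the 199 others, Bmp4 at 18.2 against 50.1 and Bmp5 at 51.7 against 180. Fstl1 there was at 599 against 566 CPM, with overlapping intervals.

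**Figure D3:**
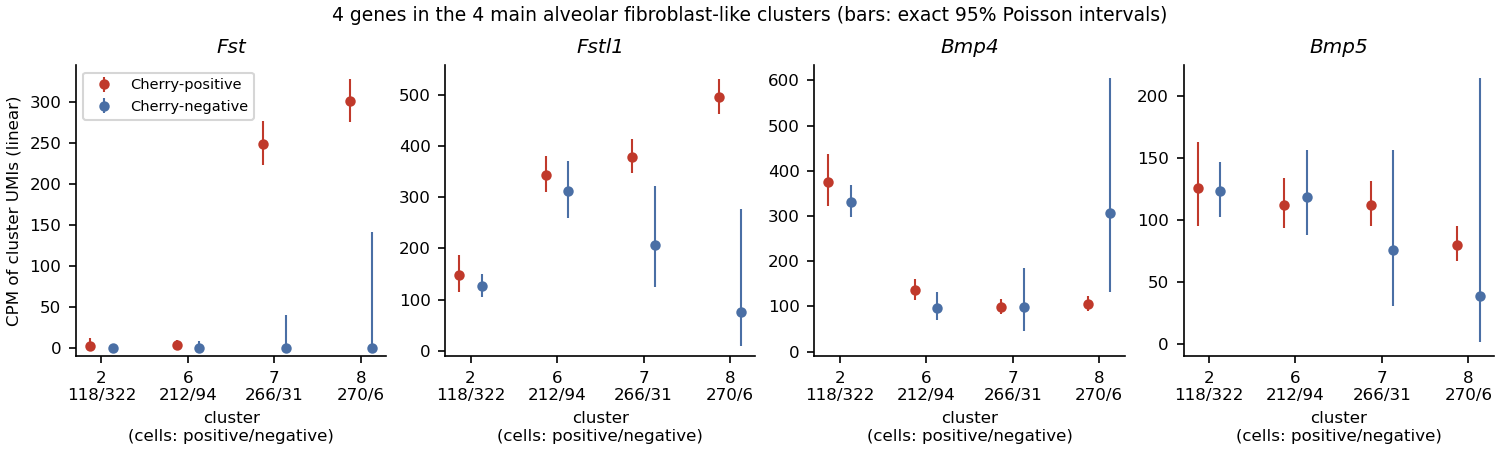
Fst, Fstl1, Bmp4 and Bmp5 in CPM of cluster UMIs (linear y axes) in the alveolar fibroblast-like clusters 2, 6, 7 and 8 (x, with the number of Cherry_positive and Cherry_negative cells); bars are exact 95% Poisson intervals. Fst is seen in clusters 7 and 8 of the Cherry_positive library (249 and 301 CPM), and Bmp4 is highest in cluster 2 of both libraries (376 and 331 CPM).

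Fstl1, on chromosome 16 at 37776873 to 37836514, plus strand, encodes follistatin-like 1, a secreted glycoprotein related to follistatin. It was the most widely held of the 6, in 567 of 867 Cherry_positive alveolar fibroblast-like cells and 207 of 243 Cherry_positive myofibroblast-like cells. Its level was 766 CPM in Cherry_positive and 617 CPM in Cherry_negative adventitial fibroblast-like cells, a ratio of 1.24 (1.09 to 1.42). In myofibroblast-like cells it was 575 and 570 CPM, a ratio of 1.01 (0.862 to 1.18), and in pericyte-like cells 183 and 151 CPM, a ratio of 1.21 (0.692 to 2.18). In alveolar fibroblast-like cells it was 389 CPM (372 to 408) against 175 CPM (155 to 196), a ratio of 2.23 (1.96 to 2.54). That ratio also moved with the clusters: Fstl1 was at 147 and 126 CPM in cluster 2, at 343 and 312 in cluster 6, and at 379 and 206 in cluster 7. Without clusters 7 and 8 the ratio was 1.63. Endothelium of larger vessels held it too, at 158 CPM in arterial-like and 212 CPM in venous-like Cherry_negative cells, and smooth muscle-like cells had 421 CPM. Capillary endothelial classes were between 17.5 and 23.8 CPM in both libraries, Cherry_negative type 2 alveolar-like cells at 4.31 CPM and type 1 alveolar-like cells at 0.

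Grem1, on chromosome 2 at 113746164 to 113758646, minus strand, was almost absent. In all kept cells it had 3 UMIs in 2 Cherry_positive and 9 UMIs in 4 Cherry_negative cells, so no ratio is given. The Cherry_negative UMIs were 8 in 3 of 75 venous-like endothelial cells, at 24.9 CPM (10.8 to 49.1), and 1 in a type 2 alveolar-like cell. Of the 8 venous-like UMIs, 6 lay in 1 cell. The Cherry_positive UMIs were 2 in 1 adventitial fibroblast-like cell and 1 in a myofibroblast-like cell.

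Inhba, the activin A subunit gene on chromosome 13 at 16011851 to 16031621, plus strand, was sparse. In alveolar fibroblast-like cells 60 UMIs in 23 Cherry_positive cells stood against 3 UMIs in 3 Cherry_negative cells, at 13.1 and 1.87 CPM, a ratio of 7.02 (2.29 to 35), and 1 cell held 43.3% of the Cherry_positive UMIs. Clusters 7 and 8 held 32 and 21 of the 60, and without both 7 UMIs stood against 3, a ratio of 2.24 (0.510 to 13.4) whose interval holds 1. In adventitial fibroblast-like cells it was at 37.4 and 9.10 CPM, a ratio of 4.11 (1.59 to 13.5), with 13 of 32 Cherry_positive UMIs in 1 cell. In myofibroblast-like cells the values were 32.1 and 16.8 CPM, a ratio of 1.91 (0.806 to 5.52), whose interval holds 1. No UMI was found in pericyte-like or general capillary-like cells of either library. The exact upper limits were 16.4 CPM in Cherry_positive and 27.9 CPM in Cherry_negative pericyte-like cells, and 7.99 and 1.48 CPM in general capillary-like cells. Car4 capillary-like cells held 8 UMIs in 5 of 309 Cherry_negative cells, at 8.24 CPM and 26.7% of that library's Inhba. The 82 Cherry_positive cells of that class held 0, with an upper limit of 12.5 CPM, so no difference between the libraries can be read there. Carcinoma-like Cherry_positive cells had 18 UMIs in 10 of 129 cells, at 13.2 CPM. A single macrophage-like or monocyte-like Cherry_positive cell held 20 UMIs.

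Bmp4, the BMP ligand gene on chromosome 14 at 46383520 to 46390669, minus strand, went the other way from Fst. It was at 137 CPM (127 to 149) in Cherry_positive and 252 CPM (228 to 278) in Cherry_negative alveolar fibroblast-like cells, a ratio of 0.545 (0.481 to 0.619). In myofibroblast-like cells it was 41.7 against 109 CPM, a ratio of 0.383 (0.248 to 0.595), and in adventitial fibroblast-like cells 103 against 158 CPM, a ratio of 0.650 (0.478 to 0.884). The pericyte-like levels of 84.7 and 144 CPM gave a ratio of 0.589 (0.295 to 1.18), with an interval that holds 1. Within clusters of the alveolar fibroblast-like class the ratio was not uniform. Bmp4 was at 376 CPM in Cherry_positive and 331 CPM in Cherry_negative cells of cluster 2 (ratio 1.13, 0.938 to 1.37), at 136 and 96.6 CPM in cluster 6 (1.41, 0.987 to 2.05) and at 98.6 and 97.6 CPM in cluster 7 (1.01, 0.517 to 2.26), and the 3 intervals hold 1. In cluster 8 it was lower, at 105 CPM against 307 CPM, the second from 8 UMIs in 6 cells. Cluster 2, with the highest Bmp4, held 322 of the 469 Cherry_negative and 118 of the 867 Cherry_positive cells, and without clusters 7 and 8 the class ratio was 0.790. Bmp4 was also held in epithelium, at 105 CPM in Cherry_positive and 106 CPM in Cherry_negative type 2 alveolar-like cells and 192 CPM in Cherry_negative type 1 alveolar-like cells. In Cherry_positive type 2 alveolar-like cells Bmp4 had 19 UMIs in 13 of 22 cells, too few for comparing the libraries. In Cherry_negative endothelium of larger vessels it had 29 UMIs in 22 of 75 venous-like cells and 20 UMIs in 14 of 135 arterial-like cells. General capillary-like cells had 34.6 and 30.9 CPM, a ratio of 1.12 (0.610 to 1.94).

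Bmp5, a BMP ligand gene on chromosome 9 at 75775364 to 75900310, plus strand, was highest in myofibroblast-like cells. There it was at 146 CPM (125 to 169) in Cherry_positive and 344 CPM (286 to 410) in Cherry_negative cells, a ratio of 0.425 (0.336 to 0.538). In adventitial fibroblast-like cells it was at 21.1 and 54.6 CPM, a ratio of 0.386 (0.202 to 0.715). Alveolar fibroblast-like cells had 102 and 117 CPM, a ratio of 0.868 (0.732 to 1.03), and pericyte-like cells 62.4 and 60.5 CPM, a ratio of 1.03 (0.404 to 2.84), and both intervals hold 1. In cluster 2 it was at 125 and 123 CPM and in cluster 6 at 112 and 118 CPM. Capillary classes were at or under 6.5 CPM and Cherry_negative type 2 alveolar-like cells at 16.2 CPM. The annotated genes Gm15217 and Gm15222 overlap Bmp4, and Gm26903 overlaps Bmp5, on the opposite strand and are in the count table; how reads in the overlap were assigned is not given in the sources used here.

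**Figure D4:**
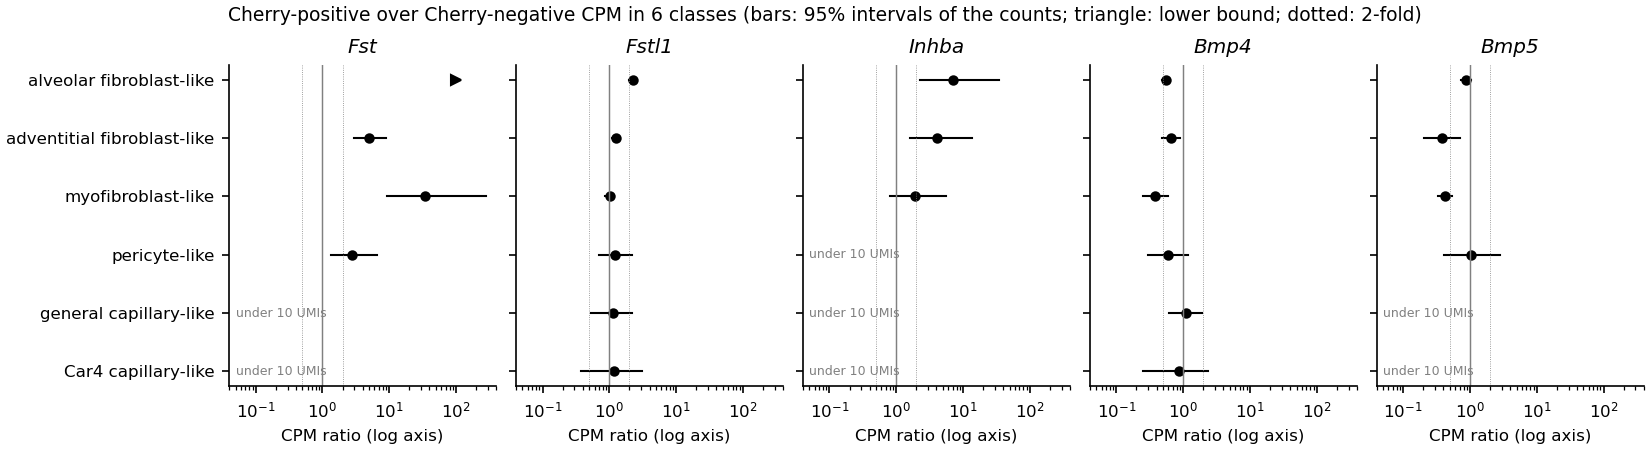
Cherry_positive over Cherry_negative CPM ratio (x, log axis) of 5 genes in the 6 compared classes; points are ratios, bars 95% intervals of the counts, the triangle a lower bound against a floor of 3 counts, dotted lines 2-fold, and classes under 10 UMIs are marked. Fst is higher in 4 mesenchymal classes, while Bmp4 is lower in alveolar fibroblast-like, adventitial fibroblast-like and myofibroblast-like cells.

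In the other classes the counts of members past 2-fold were as follows. Adventitial fibroblast-like cells had 2 of 5 measured members higher (Fst and Inhba) and 1 lower (Bmp5), against 5.26% and 7.47% of 8776 genes. Myofibroblast-like cells had 1 of 5 higher (Fst) and 2 lower (Bmp4 and Bmp5), against 7.55% and 12.3% of 8796 genes. Pericyte-like cells had 1 of 4 higher (Fst) and 0 lower, against 8.4% and 11.3% of 5073 genes. In general capillary-like and Car4 capillary-like cells, where 4.9% and 4.65% of genes were higher and 7.3% and 6% lower, no member with at least 10 UMIs passed 2-fold. The trimmed mean of the log2 ratios of all genes was -0.14 in alveolar fibroblast-like, -0.19 in myofibroblast-like and -0.22 in pericyte-like cells, and scaling by it would raise each log2 ratio there by as much. Each of the 26 class ratios of members kept its direction under that scaling, which was not run within clusters.

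The wider pathway was read from 6 lists, which were chosen with earlier results of these data known. The lists overlap, so their counts are not separate. Ltbp2 is on both the antagonist list and the activin and TGF-beta target list. Smad7 is on both target lists and, like Smad6, Smad9 and Skil, on the list of Smads and their regulators. Bambi is both a receptor-list gene and a BMP target. In alveolar fibroblast-like cells, where the median log2 ratio of all genes was -0.10, 17 of 17 activin and TGF-beta target genes had at least 10 UMIs, 6 were 2-fold higher and 0 lower, and their median log2 ratio was 0.66. Over all genes 6.75% were 2-fold higher and 9.94% lower. Acta2, smooth muscle actin, was at 306 against 31.7 CPM (ratio 9.63, 7.28 to 13). Ltbp2, a binding protein of extracellular microfibrils, was at 47.4 against 5.60 CPM (8.47, 4.38 to 18.8). Tgif1, a transcriptional repressor of the pathway, was at 43.9 against 17.4 CPM (2.52, 1.69 to 3.89). Acta2 and Tagln of this list are also among the smooth muscle markers, and Tgfbi is among the myofibroblast markers. The 10 smooth muscle markers summed to 1100 CPM in Cherry_positive and 410 CPM in Cherry_negative cells of the class, with 2 and 5 of them at 0. Their part in the list's count was not tested. Without clusters 7 and 8, 15 of the target genes were measured and 2 were 2-fold higher. The share over all genes was not computed without those clusters.

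Of 13 BMP target genes 10 were measured in alveolar fibroblast-like cells, 0 were 2-fold higher, 4 lower and 6 within 2-fold, with a median log2 ratio of -0.61. Over all genes in the class 6.75% were 2-fold higher and 9.94% lower. Smad6, an inhibitory Smad, was at 5.46 against 20.5 CPM (ratio 0.266, 0.152 to 0.461), and Tmem100, a membrane protein gene induced by BMP signalling in endothelium, at 41.5 against 145 CPM (0.286, 0.235 to 0.348). Id1, an inhibitor of basic helix-loop-helix factors, was at 43.5 against 90.2 CPM (0.482, 0.387 to 0.601), and Atoh8 at 11.4 against 25.5 CPM (0.445, 0.290 to 0.688). General capillary markers summed to 159 CPM in Cherry_positive and 458 CPM in Cherry_negative cells of the class, and in Cherry_negative general capillary-like cells Smad6 was at 467, Id1 at 817 and Tmem100 at 1851 CPM. With 5% of each class total taken as free RNA and subtracted, 3 of the genes were 2-fold lower and 1 higher. Without clusters 7 and 8, 2 of 10 measured were lower and 1 higher. For neither of these settings was the share over all genes computed. In myofibroblast-like cells 10 BMP targets were measured, 0 were 2-fold higher and 5 lower, beside 7.55% and 12.3% of all genes, and the median log2 ratio was -0.92 against -0.14 for all genes. There Id2 was at 79.3 against 257 CPM (ratio 0.309, 0.230 to 0.415), Bambi, a decoy receptor, at 39.3 against 134 CPM (0.293, 0.193 to 0.445), and Id1 at 28.0 against 78.2 CPM (0.359, 0.212 to 0.612). Smad6 and Atoh8 were the others, at 16.0 against 69.8 CPM and 8.01 against 16.8 CPM, the latter with an interval that holds 1. After the same subtraction of free RNA 5 were lower, also without a share over all genes. General capillary markers summed to 600 CPM in Cherry_positive and 1022 CPM in Cherry_negative myofibroblast-like cells, and their part was not tested beyond that subtraction.

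Among the remaining antagonists and binding proteins, 14 of 25 were measured in alveolar fibroblast-like cells, 4 were 2-fold higher and 1 lower, with a median log2 ratio of 0.20, and 6.75% and 9.94% of all genes were so. Fstl3, a follistatin relative that binds activin, was at 83.2 against 25.5 CPM (ratio 3.26, 2.36 to 4.62). Tsku, encoding the secreted proteoglycan tsukushi, was at 29.3 CPM against 0.622 CPM, the latter 1 UMI (ratio 47.1, 8.30 to 1872). Chrdl1, a chordin-like BMP antagonist, was lower, at 5.46 against 17.4 CPM (0.314, 0.175 to 0.558). Of 30 further ligands 10 were measured, 1 higher and 2 lower, with a median log2 ratio of -0.28. Tgfb1 was at 125 against 35.5 CPM (3.52, 2.68 to 4.70), Bmp3 at 64.4 against 181 CPM (0.356, 0.302 to 0.420) and Gdf10 at 8.30 against 37.9 CPM (0.219, 0.142 to 0.333). Without clusters 7 and 8, 0 of 8 measured ligands were past 2-fold in either direction, with no share over all genes computed. Of 14 measured receptors and co-receptors 0 were higher and 1 lower, near the 6.75% and 9.94% of all genes. The lower one was the activin receptor gene Acvr2b at 3.93 against 11.2 CPM (0.351, 0.172 to 0.715), and the list's median log2 ratio was -0.23. Of 11 measured Smads and Smad regulators 0 were higher and 1, Smad6, lower, with a median of 0.04.

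**Figure D5:**
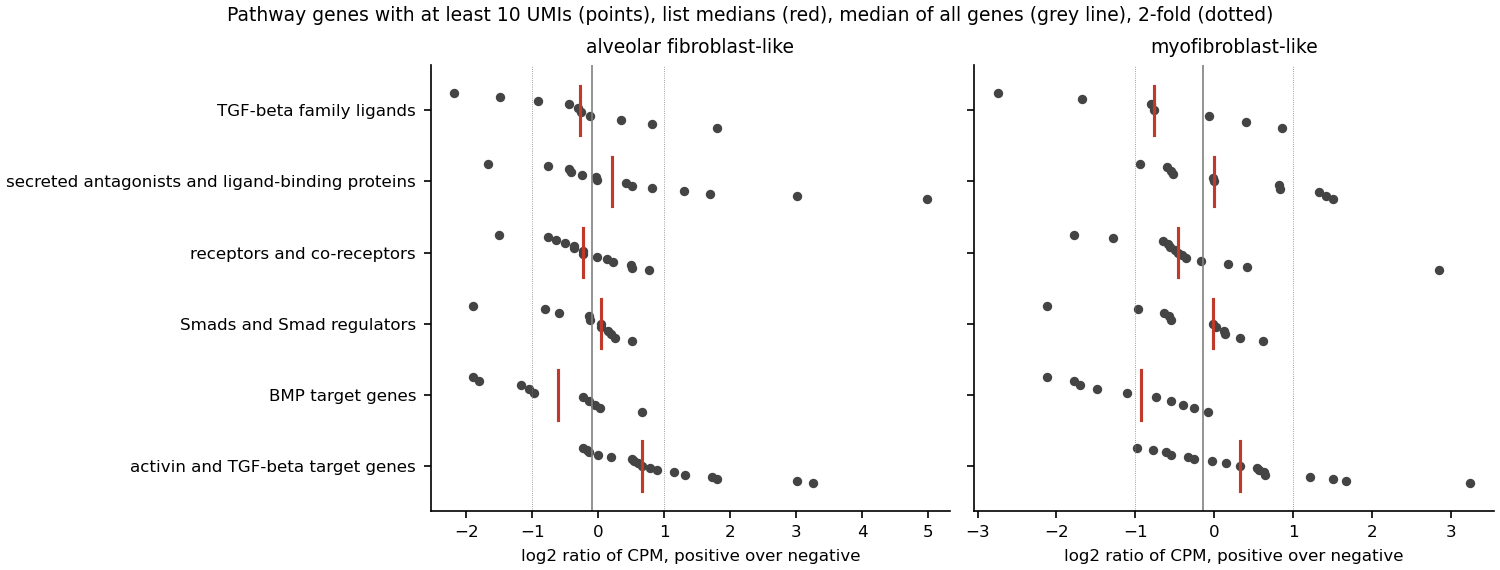
Log2 ratio of CPM, Cherry_positive over Cherry_negative (x), of each gene with at least 10 UMIs in 6 pathway lists (y), in alveolar fibroblast-like and myofibroblast-like cells; red bars are list medians, the grey line the median of all genes and dotted lines 2-fold. BMP target genes have medians of -0.61 and -0.92, and activin and TGF-beta target genes of 0.66 and 0.33.

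The genes most alike in level were found by Pearson's r of log2(CPM + 10) over 20 sums of class and library, among 6484 genes with at least 100 UMIs in all and 50 CPM in any sum. The points share 2 libraries and their depth, so r is a description. For Fst they were Ostc (r 0.824), Wisp1 (0.817), Axl (0.812), Ifi204 (0.810) and Ccl2 (0.802). For Fstl1 they were P3h3 (0.888), Nr4a1, Fbn1, Col5a2 and Bgn, of which Fbn1 encodes fibrillin 1, Col5a2 a collagen chain and Bgn biglycan. Bmp4 was nearest to Selenbp1 (0.811), Smim1, Osbpl5, Dapk1 and Acaa2, and Bmp5 to Wnt5a (0.918), Arhgap24, Ism1, Gfra2 and Ryk. Wnt5a, a secreted Wnt ligand, is one of the markers used to name myofibroblast-like cells. Inhba was nearest to Rhou (0.840), Lsp1, Vcan, Ccl7 and Dclk1, and Grem1 to the venous markers Ackr1 (0.987), Selp and Slc6a2 and to Amigo2 and Vegfc. Inhba and Grem1 are under the level asked of the others, and the likeness of Grem1 rests on 12 UMIs in all.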

How the data were processed

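The authors deposited, for each of 2 Chromium 3' libraries of CD45-negative lung cells, a matrix of raw UMI counts (genes by barcodes). Cell Ranger 2.1.1, Seurat 4.0.2, R 4.0.3 and build mm10 are listed in the submitters' processing notes, without parameters. With scanpy 1.11.5, cells under 500 genes or over 10% mitochondrial UMIs were dropped (56 and 50). Scrublet (2% expected) marked 4 (0.226%) and 7 (0.249%) cells as doublets. These were left out, and doublets may remain. Clustering pooled both libraries without batch correction and used 2000 variable genes, 30 principal components, 15 neighbours and the Leiden method (leidenalg 0.10.2, resolution 1). Clusters led as much by another class as by their own were split once at resolution 0.5, giving 26. A class needed 3 detected markers (10% of cells and 10% of the highest level), and its 10 leading genes could not name a different lineage more often. This naming was settled after the clusters were seen. UMIs were summed per class and divided by all class UMIs. Levels carry exact Poisson, shares exact binomial and ratios Clopper-Pearson intervals at 95%; a list's log2 ratios add 0.5 to each count. Code was tested on simulated data. Members, lists and the alternatives were chosen with earlier results of these data known. Named genes were all 6 members, list genes past 2-fold in alveolar fibroblast-like cells with an interval without 1 (at most 4 each way), further list genes in a class with 50 cells in each library beside a member there, 5 alike genes per member, and markers used to check a class. Leading genes of clusters 7 and 8, Spp1 and Lcn2 were named after their values were seen. Positions are from GENCODE M21 (GRCm38), promoters from RefSeq (GRCm38.p6), matched for 5 of the 6 genes. Alternatives changed cell filter, doublets, resolution, clustering, free RNA, scaling, cell weights and list minimum; those that leave out or keep single clusters, and the subtraction of free RNA from the lists, were added after seeing the data. Some named genes are not reported here.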

Additional observations from a re-analysis of the deposited data

How the results depend on the processing

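Of 306 ratios recomputed under the alternatives, 281 stayed within their counting interval, 22 moved and 3, whose reported interval leaves out 1, reversed. In all 23 lay on the other side of 1, and for the remaining 20 the reported interval holds 1; of 444 list counts 84 moved by over 1.5 times. Dropping both clusters 7 and 8, chosen after seeing the data, gave ratios in alveolar fibroblast-like cells of 1.60 (bound) for Fst, 1.63 for Fstl1, 2.24 for Inhba and 0.790 for Bmp4, and list counts of 0 ligands higher and 0 lower, 0 antagonists lower, 1 receptor higher and 0 lower, 1 BMP target higher and 2 lower, and 2 activin and TGF-beta targets higher. The Fst bound was 79.3 without cluster 7, 62.4 without cluster 8 and 7.66 in cluster 7 only, the last against 31 Cherry_negative cells. Without cluster 8, Fstl1 was 1.87 and Bmp4 0.620. Cluster 7 only gave 1.84 for Fstl1, 1.47 (0.698 to 3.72) for Bmp5 and 1.01 for Bmp4. Cluster 2 only gave 1.17 for Fstl1, 2.20 for Inhba and 1.13 for Bmp4. Cluster 6 only gave 1.10, 1.13 and 1.41 for the same genes. The Inhba ratios rest on 1 UMI against 1 in cluster 2 (0.0281 to 173) and 6 against 2 in cluster 6 (0.203 to 11.5). The Fstl1 intervals in clusters 2 and 6, 0.857 to 1.59 and 0.900 to 1.36, also hold 1. The Bmp4 intervals in clusters 7, 2 and 6, 0.517 to 2.26, 0.938 to 1.37 and 0.987 to 2.05, hold 1, and in cluster 8 Bmp4 was lower, at 105 against 307 CPM. The Fst bound was 58.6, from 338 UMIs, and the Fstl1 ratio 1.82 at a filter of 1000 genes and 5% mitochondrial UMIs. The Fst bound was also 31.0, from 228 UMIs, with each library clustered by itself, 109 with trimmed-mean scaling and 91.6 without the top cell. With no minimum beyond 1 UMI, 5 ligands and 4 antagonists were 2-fold lower, and with free RNA subtracted 1 BMP target was higher. No share over all genes was computed for the recomputed list counts. Except where fewer cells or UMIs enter by construction, the cause was not tested. A mean over cells gives no Fst ratio against a class at 0. No paired analysis was possible because each group has 1 library. Depth limits Grem1, with 12 UMIs, and Inhba.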
